A study of Mus musculus with 4 samples.

Results

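The alpha crystallins and small heat shock proteins are chaperones built around an alpha-crystallin domain. Here they are represented by 8 mouse genes, Cryaa, Cryab, Hspb1, Hspb2, Hspb3, Hspb6, Hspb7 and Hspb8. Their members on the array were taken as every probe that carries 1 of these symbols in the deposited normalized table, which gave 10 probes of 45281 and all 8 genes of the 28842 gene names on the array. Hspb1 and Hspb8 had 2 probes each and the other genes had 1. Of the 10 probes, 8 were detected above background on all 4 arrays and stood for 7 genes. Hspb7 and the second Hspb1 probe were detected on 0 arrays.

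The genes were measured in lenses of mice at postnatal day 6 on Illumina MouseWG-6 v2.0 BeadChips, which report the fluorescence of each probe. The question was which transcripts differ when Celf1 is conditionally deleted in the lens. CELF1 is an RNA-binding protein that acts on splicing, stability and translation of its target mRNAs. The paper reports that part of the Celf1 transcripts in cKO lenses at birth still held the exon targeted for deletion. The Celf1 cKO lenses (n = 2, replicates A and B) came from mice with 1 germline-null allele of Celf1 (Celf1lacZKI), 1 Celf1flox allele in which loxP sites surround exon 5, and the Pax6GFPCre transgene. That transgene drives Cre in the lens from the placode stage and also in the pancreatic lineage. The Control lenses (n = 2, replicates A and B) were Celf1lacZKI/+, so both groups shared the null lacZ allele and the Control mice kept a wild-type allele. No Cre transgene is named for these Control mice, so that Cre and the loss of Celf1 cannot be told apart. The genetic background of all mice was a mixture of C57BL/6 and FVB. Each array held RNA of 1 lens, and the sources do not say whether the lenses of a group came from different litters, so that p-values measure only the spread between these samples.

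Small heat shock proteins assemble into large oligomers that bind partly unfolded proteins and hold them for refolding or degradation without using ATP. In the lens, alpha A- and alpha B-crystallin are major structural proteins as well as chaperones, and mutations in either gene cause cataract. The other family members are best known from muscle and from stressed cells, where they protect filaments and, with BAG proteins, pass damaged clients to autophagy.

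The arrays were not equally bright. Between 16261 and 16925 probes were detected on the cKO arrays and between 14180 and 14542 on the Control arrays, and the 99th percentile of unnormalized intensity was 3208.7 to 3444.3 against 1699.2 to 2158.4. Celf1 log2 signal was 7.45 and 6.95 in cKO lenses and 8.71 and 8.55 in Control lenses, a difference of -1.43 ± 0.19 on the log2 scale (SE, adjusted p = 0.0099 in limma, and 0.0564 without Control B). Without scaling between arrays it was -0.60. Where its probes lie relative to the deleted exon was not determined. Xist, transcribed from the inactive X chromosome, was detected on both cKO arrays and on 0 Control arrays, and the Y-linked gene Ddx3y had log2 signals of 6.81 and 4.83 in cKO and 8.99 and 8.82 in Control lenses. Ddx3y was above background on all 4 arrays. The only Uty probe kept, for another Y-linked gene, was above background on both cKO arrays and on 0 Control arrays (log2 fold change 0.29, adjusted p = 0.226 in limma). The sex of the mice is not given in the sources used here, and sex and genotype cannot be told apart. Replicates correlated at r = 0.991 (cKO) and 0.987 (Control) across genes within the groups, and arrays of different groups at 0.953 to 0.973. Genes are not independent replicates in these values. Lens fiber markers were present (9 of 11 listed genes tested, 0 elevated and 2 reduced), as were those of lens epithelium (6 of 7, 0 elevated and 1 reduced). Over all genes 5.64% were reduced. The median log2 fold change was -0.38 in either list (0.01 over all genes), with 1 of 9 fiber and 2 of 6 epithelium markers above 0. Of markers of other cells, 1 of 9 for retina, 1 of 6 for pigment cells and 2 of 6 for blood were tested and 0 called, while 1 of 5 vessel markers (Emcn) and 1 of 3 tested macrophage markers (Cd68) were elevated. Over all genes 6.02% were elevated. Cd68 log2 signal was low, at 4.95 and 5.20 in cKO lenses and 4.30 and 4.49 in Control lenses. The median log2 fold change was -0.06 for the vessel and for the macrophage markers, with 2 of 5 and 1 of 3 tested genes above 0. Their summed linear signal was 260.1 to 265.4 in cKO and 239.2 to 243.9 in Control lenses for vessels and 90.7 to 92.1 against 80.0 to 84.4 for macrophages, of which Lyz2, Ptprc and Cx3cr1 were below the filter. The part of these cells in the member values was not tested.

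Of the 7 member genes tested, Hspb8 was elevated, Hspb1 was reduced and 5 did not pass the test. A gene was called when its limma adjusted p was under 0.05, its absolute log2 fold change over 0.58 and its mean log2 signal over 4.6. Over all 11516 genes tested, the same rule called 11.7%, with 6.02% elevated and 5.64% reduced. The members' share of 2 in 7 is read against that background. Signal did not overlap between the groups for 6 of the 7 members, where 62.3% of all genes did not overlap. Since each group held 2 lenses, no exact permutation test could give a two-sided p below 0.333, so that the test rests on the spread shared across all genes in limma. In RNA from whole lenses, fewer cells of a type and less RNA per cell cannot be told apart.

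**Figure D1:**
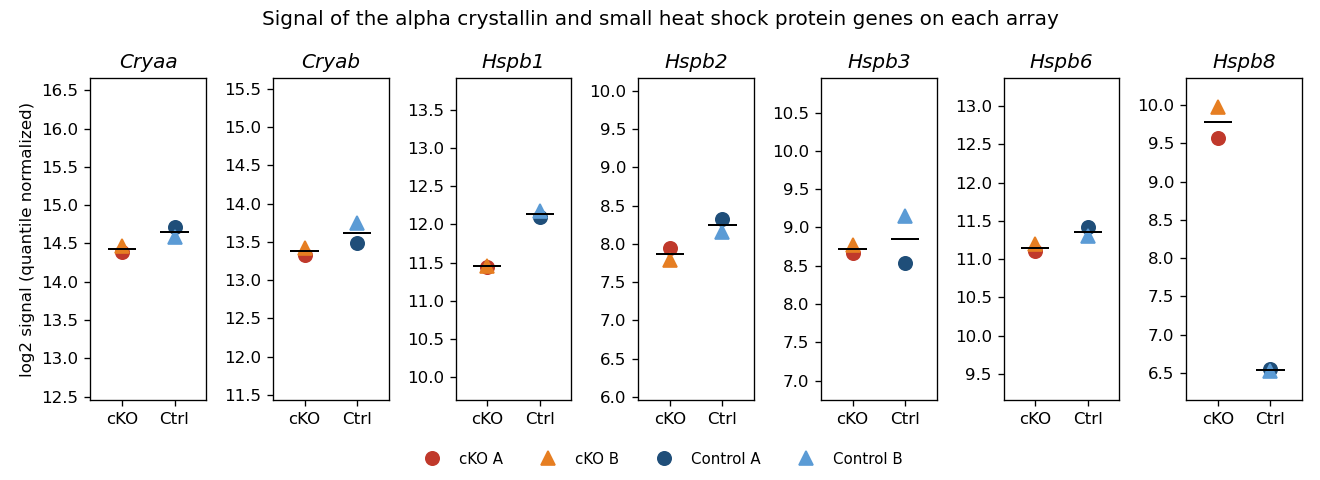
Quantile-normalized log2 signal of the 7 detected member genes on each array, with Celf1 cKO on the left and Control (Ctrl) on the right of each panel. Circles are replicate A, triangles replicate B and horizontal lines group means, and every panel spans the same height on the log2 scale. Hspb8 lies at 9.57 and 9.97 in cKO lenses and at 6.55 and 6.52 in Control lenses, and Hspb1 lies at 11.44 and 11.46 against 12.10 and 12.17 (the Hspb1 difference turns to 0.08 without scaling between arrays).

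Hspb8 was the member with the largest difference. HSPB8 (HSP22) binds the co-chaperone BAG3 and hands misfolded clients to the autophagy receptor SQSTM1. Its log2 signal was 9.57 in cKO A and 9.97 in cKO B, against 6.55 in Control A and 6.52 in Control B. Each cKO lens was above each Control lens by at least 3 log2 units. The log2 fold change was 3.24 ± 0.17 (SE, 95% confidence interval 2.83 to 3.64, n = 2 and 2), which is 9.43-fold (7.12 to 12.5), with a limma adjusted p of 9.13e-04. Among the 11516 genes, Hspb8 had rank 6 by log2 fold change and rank 3 by p.

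Both Hspb8 probes were detected on all 4 arrays and were called separately. For the probe that the files place at base 1713 of the transcript, unnormalized intensity was 2400.9 and 3068.1 in cKO lenses and 211.2 and 136.6 in Control lenses. For the probe at base 1505 it was 434.0 and 656.5 in cKO lenses and 66.5 and 63.1 in Control lenses, close to background on the Control arrays, where its detection p-values were 0.00534 and 0.00107. The unnormalized group means therefore differed 15.7-fold and 8.41-fold. In the authors' normalized table these ratios were 11.2 and 11.1. That table differs from the unnormalized table by more than a factor. The Hspb7 probe, for example, read 43.0 before and -0.1 after normalization in Control A, so that an amount was also subtracted. In the fit of single probes the log2 fold changes were 3.42 ± 0.19 (adjusted p = 5.86e-04) and 3.05 ± 0.22 (adjusted p = 9.75e-04), so that the probes differed less from each other than from 0.

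The probe at base 1713 has an uncommon sequence. CELF1 is known to bind GU-rich stretches of RNA, whose DNA letters include TGT, and this triplet was counted in the probes after their sequences had been seen. The probe holds 10 overlapping TGT, and 0.00442% of the 45263 probes hold at least as many, while the Hspb8 probe at base 1505 holds 0. The richest 30 bases of the probe, bases 5 to 34 with 8 TGT in capitals, are printed because they belong to the member with the largest change.
Hspb8 probe, bases 5 to 34: ggaTGTGTGTGTcttTGTTGTGTgaatTGT
The sequence is that of a detection probe. Whether CELF1 binds the Hspb8 transcript there was not tested. No member probe shares a run of 20 bases with a probe of another gene.

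Hspb1 was reduced. HSPB1 (HSP25 in mouse) is the stress-inducible member that binds actin filaments and shields unfolding proteins. Its log2 signal was 11.44 and 11.46 in cKO lenses and 12.10 and 12.17 in Control lenses, with no overlap. The log2 fold change was -0.69 ± 0.13 (SE, 95% confidence interval -1.0 to -0.37, n = 2 and 2), which is 1.61-fold lower (1.29 to 2.01), with a limma adjusted p of 0.0245. It was at rank 673 by p among all genes tested, and 5.05% of genes had a lower log2 fold change.

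The Hspb1 call came from 1 probe and depended on how the arrays were scaled. In the unnormalized table its intensity was 3557.3 and 3899.4 in cKO lenses and 3833.1 and 3236.5 in Control lenses, so that the groups overlapped and the ratio of their means was 1.05. In the authors' rank-invariant table it was 3210.3 and 3430.3 against 5531.0 and 6174.9, a ratio of 0.567. Without scaling between arrays the log2 fold change of Hspb1 was 0.08 (adjusted p = 0.768), while the median over all genes was then 0.57. Relative to the median of all genes, Hspb1 stayed below 0 in all 17 alternatives that used the 4 arrays, by 0.34 to 0.79 on the log2 scale. Many of these alternatives leave its fitted value as reported. The call was also lost without cKO A (adjusted p = 0.107), without cKO B (0.147) and without Control B (0.0933), and was kept without Control A (0.0435), with log2 fold changes of -0.71 to -0.64. The second Hspb1 probe read 41.8 to 49.6 on the 4 arrays and was not detected.

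Cryaa and Cryab did not pass the test. Cryaa encodes alpha A-crystallin, which is largely restricted to the lens. Its log2 signal was 14.39 and 14.47 in cKO lenses and 14.72 and 14.58 in Control lenses, a log2 fold change of -0.22 ± 0.14 (SE, 95% confidence interval -0.55 to 0.12, adjusted p = 0.332). Cryab encodes alpha B-crystallin, which is made in the lens, heart, muscle and stressed cells. Its log2 signal was 13.32 and 13.43 against 13.49 and 13.75, a log2 fold change of -0.24 ± 0.15 (95% confidence interval -0.60 to 0.12, adjusted p = 0.319). Without Control B it was -0.11 and without Control A it was -0.37. The interval of Cryab reaches past the fold threshold on the lower side, that of Cryaa stops short of it, and either includes a small rise. These intervals hold for the reported scaling only. Cryaa lies among the brightest probes, where quantile normalization gives arrays the same few top values. With cyclic loess, another scaling between arrays, the log2 fold changes were -0.51 (Cryaa) and -0.42 (Cryab). In either gene the groups did not overlap, as in 62.3% of all genes, and 26.7% and 24.2% of genes had lower log2 fold changes than Cryaa and Cryab.

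The alpha crystallin probes were among the brightest on every array. Cryaa had rank 15 to 24 and Cryab rank 55 to 86 of 45263 probes by unnormalized intensity. Cryaa read 24467 and 26673 in cKO lenses and 27930.3 and 21401.8 in Control lenses, with overlap and a ratio of group means of 1.04. In the rank-invariant table it read 22293.3 and 23676.6 against 40696.5 and 41251.5, a ratio of 0.561. A straight line of normalized on unnormalized intensity had slopes of 0.913 and 0.889 on the cKO arrays (A and B) and 1.459 and 1.931 on the Control arrays. With the authors' normalization the Cryaa groups changed from overlapping to separated. With the rank-invariant values plus 16 the Cryaa log2 fold change was -0.83 and passed the test (adjusted p = 0.0223), as it did when the detected probes of all 4 arrays were given an equal median (-0.70, adjusted p = 0.0138). The maximum unnormalized intensity on an array was 35285.9 to 41745.3, and the files carry no saturation mark.

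The order of the Cryab groups turned with the scaling. Its unnormalized intensity was 12021.1 and 13051.4 in cKO lenses and 10877.9 and 10570.6 in Control lenses, a ratio of 1.17 without overlap. After the rank-invariant scaling it was 10934.7 and 11566.6 against 15811.6 and 20336.8, a ratio of 0.623. The standard error over beads of the Control B reading was 12.9% of the signal, wider than the 3.80% to 7.98% of the other arrays.

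**Figure D2:**
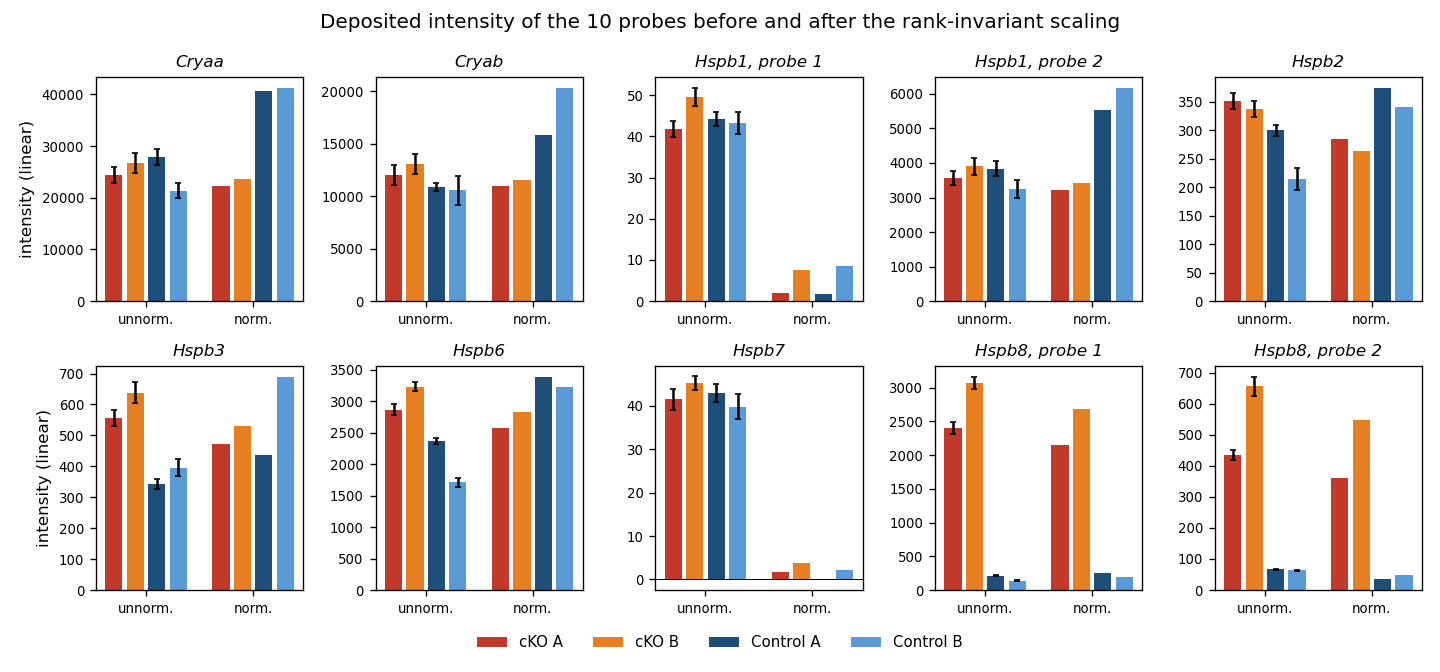
Deposited intensity of the 10 member probes on a linear axis from 0, before (unnorm.) and after (norm.) the authors' rank-invariant scaling, with 1 bar for each array and error bars for the standard error over beads, drawn for the unnormalized values. The normalized values also have an amount subtracted. The Cryaa bars lie between 21401.8 and 27930.3 before scaling and split into 22293.3 and 23676.6 (cKO) against 40696.5 and 41251.5 (Control) after it, while the Hspb8 bars separate on either scale.

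The Cryaa and Cryab probes cover matching stretches of the paralogous transcripts, and their alignment is given to show how far a probe of either alpha crystallin matches that of the other. Capitals mark the 29 of 41 overlapping bases that are identical (70.7%), with the probes offset so that they align best.
Cryaa probe: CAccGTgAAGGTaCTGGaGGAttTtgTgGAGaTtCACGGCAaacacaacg
Cryab probe: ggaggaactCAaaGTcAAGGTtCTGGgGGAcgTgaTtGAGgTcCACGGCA
The mismatches are spread over the overlap, and the longest shared run is shorter than the 20 bases used in the search of shared runs.

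Hspb2, Hspb3 and Hspb6 did not pass the test. HSPB2 and HSPB3 form a complex of their own in muscle. Hspb2 log2 signal was 7.95 and 7.79 in cKO lenses and 8.33 and 8.16 in Control lenses, a log2 fold change of -0.37 ± 0.15 (SE, 95% confidence interval -0.72 to -0.02, limma adjusted p = 0.136). Hspb3 log2 signal was 8.66 and 8.77 against 8.54 and 9.15, a log2 fold change of -0.13 ± 0.21 (-0.64 to 0.37, limma adjusted p = 0.701). Hspb3 was the member whose groups overlapped, since Control A lay below and Control B above both cKO lenses. Without Control B its log2 fold change was 0.18.

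HSPB6 (HSP20) is a muscle-enriched member that also binds BAG3. Hspb6 log2 signal was 11.10 and 11.20 in cKO lenses and 11.42 and 11.30 in Control lenses, a log2 fold change of -0.21 ± 0.14 (SE, 95% confidence interval -0.54 to 0.12, limma adjusted p = 0.341). Before scaling, the intensities of these 3 genes were higher in cKO lenses, with ratios of group means of 1.34 (Hspb2), 1.62 (Hspb3) and 1.49 (Hspb6). After the rank-invariant scaling the ratios were 0.766, 0.889 and 0.818. Hspb7, which encodes a cardiac and muscle member, read 39.8 to 45.3 with detection p-values of 0.499 to 0.730, so that no change could be measured. Skeletal and smooth muscle markers were mostly undetected, with 2 of 13 (Mylpf and Acta2) tested and neither called. The Acta2 log2 signal was 7.36 and 8.88 in cKO lenses and 8.11 and 8.07 in Control lenses, and the part of muscle cells in the member values was not tested.

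**Figure D3:**
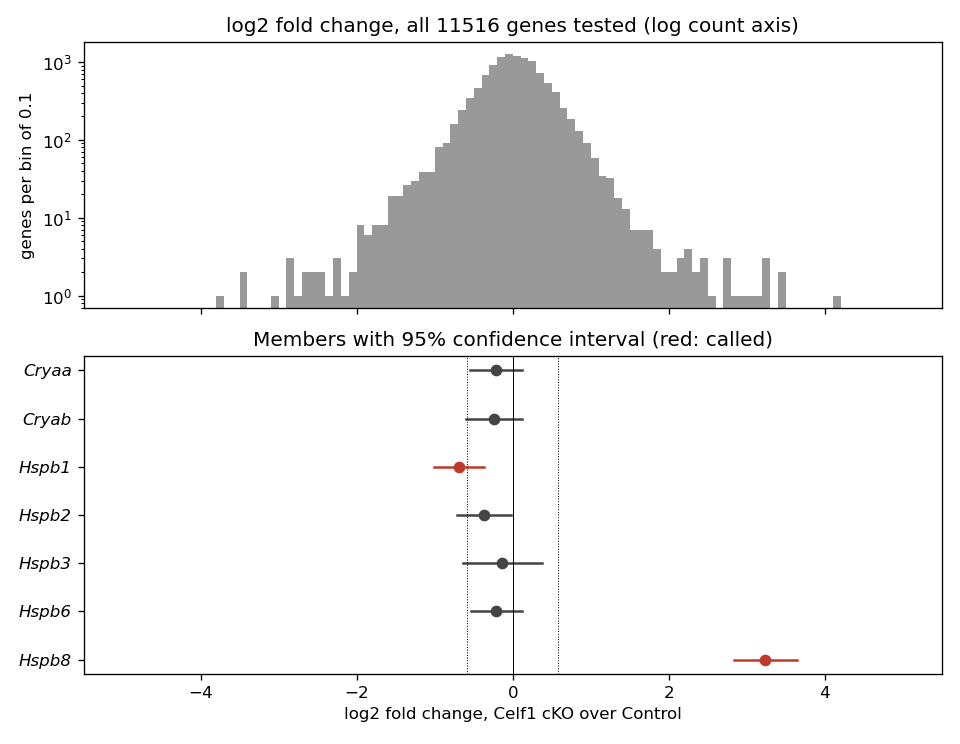
Upper panel, the log2 fold changes of all 11516 genes tested, Celf1 cKO over Control, in bins of 0.1 with a log count axis. Lower panel, the 7 member genes with their 95% confidence intervals, with dotted lines at the threshold of 0.58 either way and called genes in red. Hspb8 at 3.24 lies in the sparse right tail, and the other members lie between -0.69 (Hspb1) and -0.13 (Hspb3), values that turn positive for these 6 genes without scaling between arrays.

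Hspb8 passed the test with the same sign in every alternative, while Cryab and Hspb2 passed it in none. The Hspb8 log2 fold change was 2.71 to 4.0 over the reported setting and 17 alternatives with all 4 arrays. It was 3.02 to 3.42 when each array was left out in turn, which leaves 1 lens in a group. The other 6 members were each negative as reported and each positive without scaling between arrays or with an equal median over all probes of each array. Under those scalings the median over all genes was 0.57 and 0.53, and 97.7% and 97.3% of called genes were elevated, against 51.6% as reported. With an equal median over the detected probes of all 4 arrays, the median of all genes was -0.19 and 24.9% of calls were elevated.

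Relative to the median of all genes the members were steadier. Cryaa lay between -0.81 and -0.19, Cryab between -0.65 and -0.21 and Hspb2 between -0.40 and -0.09. These 3 were below the median of all genes in 17 of 17 alternatives. Many of the alternatives change only the filter, probe rule or variance model and leave the fitted value as reported. The scalings by a constant for each array share the same relative value. The count is therefore not of independent settings. Hspb3 lay between -0.16 and 0.16 and Hspb6 between -0.27 and 0.03, each below it in 14 of 17. Hspb8 lay between 2.70 and 3.50 above it. Of the 7 members, only Hspb8 kept both its sign and its call under all 17 alternatives.

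**Figure D4:**
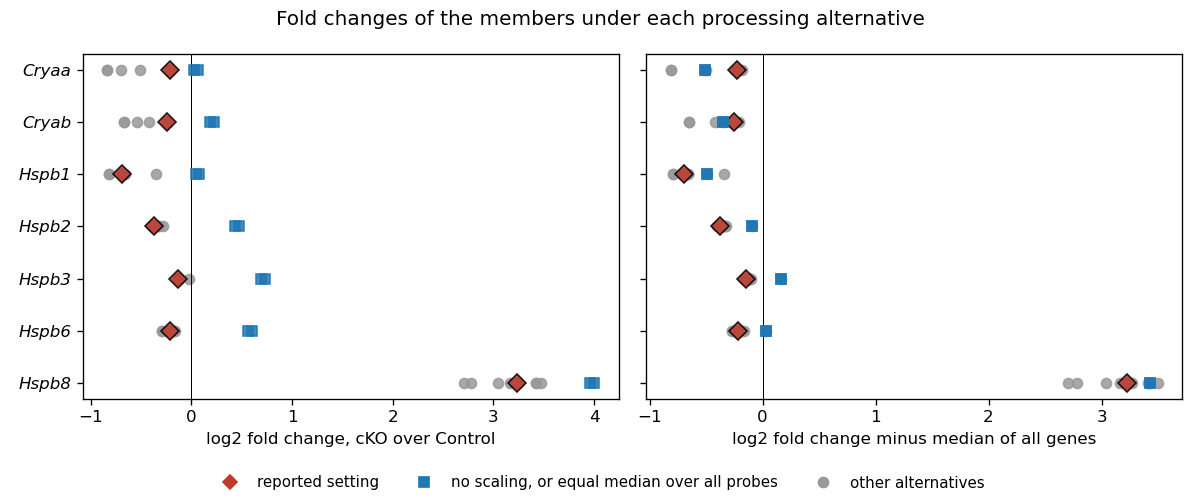
Log2 fold change of each member, Celf1 cKO over Control, under the reported setting (red diamonds), without scaling or with the same median over all probes (blue squares) and under the other alternatives with all 4 arrays (gray circles). The left panel gives plain values and the right panel the same values minus the median of all genes. The blue squares lie right of 0 for every member on the left, for example at 0.08 for Hspb1 without scaling, and left of 0 for Cryaa, Cryab, Hspb1 and Hspb2 on the right.

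The promoters of the called members are printed because heat shock factors, including the lens factor HSF4, act on small heat shock genes through inverted repeats of GAA. Windows of 300 bases, from 250 before to 50 after a transcript start, were taken from RefSeq (GRCm38.p6) for 6 of the 8 genes, and no window is given for Cryab and Hspb2. Both strands were searched for GAANNTTC and TTCNNGAA, which read the same on either strand and can overlap each other in longer repeats. The Hspb8 window, chr5:116422815-116423114 on the minus strand, holds 1 GAANNTTC in capitals, which begins 2 bases after the first transcribed base. The Hspb1 window, chr5:135887669-135887968 on the plus strand, holds 2, which begin 117 and 97 bases before the start.
Hspb8 promoter window: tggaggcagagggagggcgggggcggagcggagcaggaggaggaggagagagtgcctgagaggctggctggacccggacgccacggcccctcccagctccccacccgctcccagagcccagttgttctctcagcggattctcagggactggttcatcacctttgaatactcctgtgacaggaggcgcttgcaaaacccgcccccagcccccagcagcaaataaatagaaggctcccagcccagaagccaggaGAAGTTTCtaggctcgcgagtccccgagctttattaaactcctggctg
Hspb1 promoter window: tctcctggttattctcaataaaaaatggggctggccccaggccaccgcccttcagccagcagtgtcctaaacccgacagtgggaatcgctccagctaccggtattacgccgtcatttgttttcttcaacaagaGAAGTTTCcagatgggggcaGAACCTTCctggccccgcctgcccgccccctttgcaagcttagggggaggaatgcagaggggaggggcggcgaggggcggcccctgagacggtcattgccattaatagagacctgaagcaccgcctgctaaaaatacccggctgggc
Among all 32851 windows, 7.86% hold GAANNTTC and 8.52% hold TTCNNGAA. The elevated and the reduced member therefore share the GAANNTTC letters in their windows, as do Hspb3 and 1 of 2 Hspb6 windows, which did not pass the test. TTCNNGAA was in none of the 7 member windows, and Hspb7 and Cryaa had neither.

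The Cryaa window, chr17:31677681-31677980 on the plus strand, is shown because MAF proteins act on alpha crystallin genes through sites with the core TGCTGA and Maf is among the regulators below. With both strands searched it holds 1 TGCTGA, in capitals, a core that 19.5% of all windows hold.
Cryaa promoter window: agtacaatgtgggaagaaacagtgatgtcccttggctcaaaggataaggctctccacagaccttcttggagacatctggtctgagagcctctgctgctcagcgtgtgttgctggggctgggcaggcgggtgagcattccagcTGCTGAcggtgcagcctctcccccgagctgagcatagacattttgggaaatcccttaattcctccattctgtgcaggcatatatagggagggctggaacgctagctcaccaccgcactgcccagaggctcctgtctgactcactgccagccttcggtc
These matches are letters in a window, and no binding was measured. In the same RefSeq annotation, Hspb2 (chr9:50751072-50752354) lies within the span given for Cryab (chr9:50745951-50756636), and neither gene passed the test.

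Among proteins that work with the small heat shock proteins, Sqstm1 and Dnajb1 were elevated. The list held 13 BAG, HSP70 and autophagy partners, of which 9 were tested, 2 were elevated (6.02% over all genes), 0 were reduced and the median log2 fold change was -0.06 (0.01 over all genes). Sqstm1, the autophagy receptor p62, had log2 signals of 12.35 and 12.66 in cKO lenses and 10.32 and 10.28 in Control lenses, which differ by 2.20 ± 0.16 (SE) on the log2 scale (limma adjusted p = 0.0021). Bag3, the direct partner of HSPB8, had 8.14 and 8.34 against 8.61 and 8.48, a log2 fold change of -0.30 ± 0.15 (adjusted p = 0.204). Hspb8 and Sqstm1 thus passed the test while Bag3, the gene for the protein that links them, did not.

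Of 23 listed genes of the heat shock response, 17 were tested, 1 was elevated (Dnajb1), 1 was reduced (Ahsa1) and the median was -0.07. That is close to the 11.7% called over all genes. Dnajb1, an HSP40 co-chaperone of HSP70, had log2 signals of 12.77 and 13.12 in cKO lenses and 12.34 and 12.21 in Control lenses (log2 fold change 0.67 ± 0.17, limma adjusted p = 0.0462), and it lost its call without any 1 of the 4 arrays (adjusted p = 0.0600 to 0.268). Ahsa1, an activator of HSP90, had 8.49 and 8.30 against 9.36 and 9.61 (-1.09 ± 0.16, limma adjusted p = 0.0115), and it lost its call without cKO B (0.0845) or Control B (0.0617). The inducible Hspa1a and Hspa1b were below the detection filter.

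Of 14 listed regulators of alpha crystallin genes, 10 were tested, 0 were elevated, 2 were reduced, where 5.64% of all genes were reduced, and the median log2 fold change was -0.36. Maf, a lens factor that activates crystallin genes, had log2 signals of 6.37 and 5.98 in cKO lenses and 7.21 and 7.43 in Control lenses (-1.14 ± 0.18, limma adjusted p = 0.0143). Foxe3, a factor of the lens epithelium, had 5.14 and 5.08 against 5.94 and 5.87 (-0.79 ± 0.14, adjusted p = 0.0177). Hsf4, the heat shock factor of the postnatal lens, had 10.90 and 10.97 against 11.35 and 11.38 and did not pass the test (-0.43 ± 0.13, adjusted p = 0.0785). Without Control B or without cKO B the calls were lost for Maf (adjusted p = 0.0765 and 0.0951) and Foxe3 (0.0619 and 0.141), and for Foxe3 also without cKO A (0.0738). Pax6 was below the filter.

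Filaments and cytoskeletal proteins that small heat shock proteins protect were listed as clients. Of 12 genes, 9 were tested, 1 was elevated and 3 were reduced, where 6.02% and 5.64% of all genes were, and the median was -0.26. Flnc, the muscle filamin degraded through the BAG3 pathway, had log2 signals of 6.18 and 6.80 in cKO lenses and was not detected in Control lenses, so that it was at least 3.36-fold higher (limma adjusted p = 0.0042). It passed the detection filter only through the cKO arrays, it was not tested where detection on all 4 arrays was required or without either cKO array, and without a detection filter its call was lost (log2 fold change 0.81, adjusted p = 0.0571). Bfsp2, a subunit of the beaded filament of fiber cells, had 12.52 and 12.35 against 13.14 and 13.25 (-0.76 ± 0.14, adjusted p = 0.0228). Actb, a cytoplasmic actin, had 10.50 and 9.99 against 11.71 and 11.89 (-1.55 ± 0.20, adjusted p = 0.0085), and the glial filament gene Gfap had 5.06 and 4.57 against 5.50 and 5.73 (-0.81 ± 0.20, adjusted p = 0.0436). The Actb value is a mean of 5 probes, and it was -0.77 for the brightest probe and -0.80 without scaling between arrays. The Gfap value is a mean of 2 probes, and it was -1.13 for the brightest probe. The call was lost for Actb without Control B (adjusted p = 0.0587), for Bfsp2 without cKO A, cKO B or Control B (0.0613, 0.151 and 0.0963) and for Gfap without cKO B, Control A or Control B (0.272, 0.0769 and 0.163), where the Gfap log2 fold change was -0.53, -1.26 and -1.10.

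Of the other crystallins, which are not chaperones of this family, 14 of 14 were tested, 0 were elevated and 4 were reduced, all of them gamma crystallins (Cryga, Crygb, Cryge and Crygf), with a median of -0.11. Over all genes 5.64% were reduced. Crygf had log2 signals of 7.99 and 7.38 in cKO lenses and 10.43 and 10.48 in Control lenses, a log2 fold change of -2.77 (limma adjusted p = 0.0022). Gamma crystallin genes are near-identical in sequence, so that their probes may share signal. Without any 1 of the 4 arrays the calls of Cryga (adjusted p = 0.0563 to 0.203) and Crygb (0.0624 to 0.248) were lost, and that of Cryge without cKO B (0.102) or Control B (0.0655). The 10 other crystallins that did not pass the test had log2 fold changes from -0.23 (Crygn) to 0.15 (Cryba4). Most of them lay among the brightest probes, where quantile normalization gives arrays the same few top values (15.23 for Crybb1 in cKO A and Control A), so that their differences are not a scale for those of Cryaa and Cryab. The same limit holds for Cryaa itself, whose log2 signal of 14.47 in cKO B is also that of Cryga in Control A. None of the called genes of these lists changed direction under any alternative in which it was tested, but without scaling between arrays or with an equal median over all probes of each array the calls of Ahsa1, Maf, Foxe3, Bfsp2, Gfap, Cryga, Crygb and Cryge were lost. Their log2 fold changes without scaling ran from -0.43 (Gfap) to -0.12 (Cryge), with adjusted p of 0.111 to 0.660 in limma. The calls of Sqstm1, Dnajb1, Flnc, Actb and Crygf were kept there. Foxe3 and Gfap, with low signals, also lost their calls without background correction (log2 fold changes -0.42 and -0.41) and with an offset of 50 (-0.46 and -0.44).

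**Figure D5:**
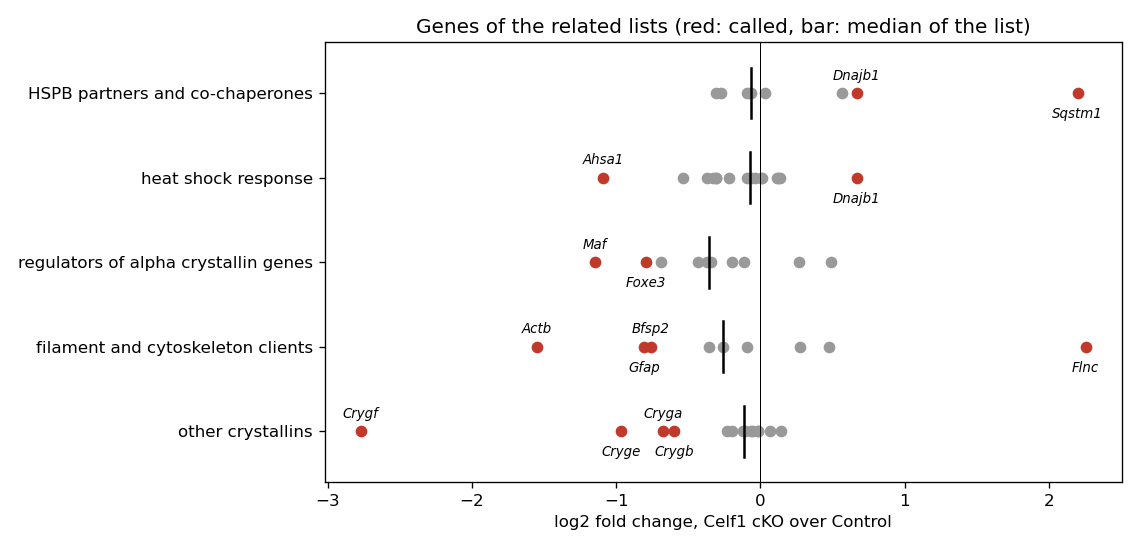
Log2 fold change of each tested gene of the lists of partners, heat shock response, regulators, clients and other crystallins, Celf1 cKO over Control. Red points passed the test, gray points did not, and bars mark list medians from -0.36 (regulators) to -0.06 (partners). Sqstm1 at 2.20 and Flnc at 2.26 lie far right of the other listed genes, where the point of Flnc is the fitted value and a bound is given in the text because Control lenses were below background.

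The genes whose pattern over the 4 arrays was most like that of a called member were found by the distance between mean-centred log2 values. For Hspb8 they were Fabp3, a fatty acid binding protein of heart and muscle (distance 0.24), Xist (0.46) and Arhgap12 (0.53). Xist was not detected in Control lenses, so that its distance rests on background values there. Fabp3 had log2 signals of 8.11 and 8.83 in cKO lenses and 5.17 and 5.23 in Control lenses. For Hspb1 they were Cenpv (0.034), Gatd3a (0.035) and Apoc2 (0.035), with log2 fold changes of -0.66, -0.68 and -0.66. Few genes moved as far as Hspb8, so that its neighbours lie farther away than those of Hspb1, and 4 arrays give a weak basis for likeness.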

How the data were processed

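The authors hybridized total RNA of 1 lens to each of 4 arrays and deposited an unnormalized intensity table and, per the file headers, a rank-invariant normalized intensity table, each with a detection p-value against negative control beads, bead numbers and bead standard errors. Of 45281 probes, 18 lines with shifted cells were left out. Probes were named through a RefSeq table (GRCm38.p6), with 29586 matched by Entrez identifier, 2759 by accession, 2214 by symbol and 2370 by older symbol, and 8334 kept the deposited symbol. The files name no build for probe positions.

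Unnormalized intensity was background-corrected from the deposited detection p-values (normexp, offset 16), quantile normalized and log2-transformed with limma (version 3.58.1, R version 4.3.3), which follows its neqc. A probe was kept when 2 or more samples had detection p-values under 0.05 (16262 probes), and the mean log2 value over its probes stood for a gene (11516 genes). Groups were compared with lmFit and eBayes, two-sided, and p-values were adjusted by Benjamini-Hochberg across all genes. Thresholds followed the study's methods, but its edgeR model for counts was not applied because the values are intensities. For a gene not detected in a group, a bound is set against the lowest detected signal of each array. The fit was tested on simulated data.

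Members, lists and tests were chosen with earlier results of these data known. Named genes are the members, the called genes of the lists, Bag3, the 3 nearest genes of each called member, Celf1, Xist and Ddx3y. Hsf4, Crygn, Cryba4, Acta2, Mylpf, Uty, Crybb1, Emcn, Cd68, Lyz2, Ptprc, Cx3cr1, Pax6, Hspa1a and Hspa1b were named after their values were seen. Alternatives covered the table, background, scaling, filter, probe rule, variance model, replicate letter as a block and leaving out each array. The number of arrays limits the precision. Python (version 3.11.15) read the tables and drew the figures.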

Additional observations from a re-analysis of the deposited data

How the results depend on the processing

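Hspb8 was elevated under every alternative run. For the other 6 members the direction depended on scaling, and for Cryaa, Hspb1, Hspb3 and Hspb6 the call did too. Relative to the median of all genes, Cryaa, Cryab, Hspb1 and Hspb2 stayed below 0 in 17 of 17 alternatives, many of which leave the fitted value as reported. With the same median over all probes the log2 fold changes were 0.0252 (Cryaa), 0.19 (Cryab), 0.0424 (Hspb1), 0.44 (Hspb2), 0.70 (Hspb3, called) and 0.56 (Hspb6), and without scaling 0.0633, 0.22, 0.0805, 0.48, 0.73 (called) and 0.60 (called), while the median of all genes rose to 0.53 and 0.57. Of the listed genes run under these 2 settings, which were the called ones, Bag3 and Hsf4, those that turned were Bag3 (0.52 and 0.56) and Hsf4 (0.32 and 0.36), and Ahsa1, Maf, Foxe3, Bfsp2, Gfap, Cryga, Crygb and Cryge lost their calls. Cryaa was called reduced with the normalized table plus 16 (-0.83) and with the same median over detected probes (-0.70). Hspb1 lost its call with normalized values under 1 set to 1 (-0.82), without a detection filter (-0.35, with its undetected probe averaged in) and under treat (-0.69), which left 1 member called in each. Leaving out 1 array, which leaves 1 lens in a group, gave -0.71 to -0.64 for Hspb1 and -0.44 to 0.18 for Hspb3 (above 0 without Control B).

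Over all genes 1342 were called as reported, 7 with normalized values under 1 set to 1, 747 without background correction, 789 with an offset of 50, 5417 with the same median over all probes, 2692 over detected probes, 5789 without scaling, 207 without a filter, 83 under treat and 163 to 1356 without 1 array. With the replicate letter as a replicate block Hspb8 stayed at 3.24 and Hspb1 at -0.69 (adjusted p = 0.0207). Under that setting 1675 genes were called. Across genes, the gap between replicates in cKO lenses was not correlated with the gap in Control lenses (r = -0.01). With so few arrays, this value cannot show whether same-lettered arrays shared a litter or a slide. Sqstm1 and Crygf kept their calls in 20 of 21 alternatives and Dnajb1 in 9 of 21. A block for slide was not run, since no slide is named in the files. Dim probes near background, such as the second Hspb8 probe in Control lenses, limit what low signals can show.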
